A study of Mus musculus with 6 samples.

Results

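The genes examined here are 10 genes of glutathione metabolism and of the antioxidant response steered by the transcription factor NRF2: Nfe2l2, Keap1, Hmox1, Nqo1, Gclc, Gclm, Gsr, Txnrd1, Srxn1 and Gpx4. They were chosen by name, with earlier results of these data known. Every array probe whose accession belonged to one of the 10 genes was taken, which gave 12 probes. All 10 genes were among the 16490 genes tested, and all 12 probes were well above background on all 6 arrays. Total RNA came from neuro2a (N2a) cells, a mouse neuroblastoma line, hybridised to single-colour Agilent arrays. Control cells (3 arrays) had been transfected with an empty miR RNAi vector, labelled Vector knockdown. Knockdown cells (3 arrays) had been transfected with miR RNAi vectors against NFYA and NFYC, 2 of the subunits that make up the CCAAT-binding transcription factor NF-Y. The control vector was empty, so a non-targeting RNAi transcript was not part of this comparison. Transfection was transient, and the study's methods describe no sorting of these cells before RNA extraction. The labels do not say whether the arrays came from separate cultures, so p-values measure the spread between these samples, which may be technical.

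NRF2, encoded by Nfe2l2, is held low in unstressed cells by Keap1, which presents it to a Cul3 ubiquitin ligase for degradation. When oxidants or electrophiles modify Keap1, NRF2 accumulates and binds antioxidant response elements together with small Maf proteins. Its classical target genes encode enzymes that make and recycle glutathione, reduce thioredoxin and quinones, repair oxidised peroxiredoxins and degrade heme. NRF2 is regulated largely through protein stability, and the arrays measured mRNA alone.

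Promoter windows from RefSeq (GRCm38.p6), running from 250 bases before to 50 after each annotated start, were held in the reference for 7 of the 10 genes, as 12 windows. Hmox1, Gclc and Gsr had no window there. Both strands of the windows were searched for CCAAT, the letters NF-Y binds. They were also searched for TGACNNNGC, the core of the antioxidant response element. A match on the opposite strand is printed as its reverse complement. CCAAT was present in 5 of the 12 windows, from 3 genes, and the antioxidant core in 4 windows, each of a different gene. Of all 32851 windows in the reference, 37.4% held CCAAT and 12.4% the antioxidant core. The windows below are those that held a match, with 1 start each shown for Txnrd1 and Gpx4. Capitals mark CCAAT or the antioxidant core. A match is a description of letters and not a site of binding.
Nfe2l2 (chr2:75704614-75704913, minus strand): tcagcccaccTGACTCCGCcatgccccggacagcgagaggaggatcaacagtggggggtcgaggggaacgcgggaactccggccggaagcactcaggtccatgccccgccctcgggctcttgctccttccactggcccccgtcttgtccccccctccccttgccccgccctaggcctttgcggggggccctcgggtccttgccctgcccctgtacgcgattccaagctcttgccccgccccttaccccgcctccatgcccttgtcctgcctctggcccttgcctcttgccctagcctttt
Srxn1 (chr2:152105274-152105573, plus strand): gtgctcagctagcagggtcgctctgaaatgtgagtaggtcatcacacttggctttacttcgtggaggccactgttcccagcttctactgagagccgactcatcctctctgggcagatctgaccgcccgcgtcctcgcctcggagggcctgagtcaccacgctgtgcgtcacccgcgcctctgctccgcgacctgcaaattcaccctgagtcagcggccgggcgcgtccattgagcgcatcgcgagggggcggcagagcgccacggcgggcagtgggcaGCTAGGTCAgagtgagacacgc
Txnrd1 (chr10:82858956-82859255, plus strand): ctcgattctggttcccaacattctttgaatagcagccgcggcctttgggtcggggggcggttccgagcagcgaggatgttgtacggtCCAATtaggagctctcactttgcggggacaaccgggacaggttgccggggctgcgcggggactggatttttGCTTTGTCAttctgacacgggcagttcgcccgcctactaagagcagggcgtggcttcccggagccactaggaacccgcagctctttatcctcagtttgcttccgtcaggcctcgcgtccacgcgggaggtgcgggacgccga
Gclm (chr3:122245307-122245606, plus strand): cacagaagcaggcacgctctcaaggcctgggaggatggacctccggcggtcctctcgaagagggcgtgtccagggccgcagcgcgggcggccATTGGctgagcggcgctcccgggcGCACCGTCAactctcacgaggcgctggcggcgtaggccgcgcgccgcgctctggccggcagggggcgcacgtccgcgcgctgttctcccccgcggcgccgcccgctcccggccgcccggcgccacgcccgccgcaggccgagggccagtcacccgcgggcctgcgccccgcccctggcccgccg
Gpx4 (chr10:80053315-80053614, plus strand): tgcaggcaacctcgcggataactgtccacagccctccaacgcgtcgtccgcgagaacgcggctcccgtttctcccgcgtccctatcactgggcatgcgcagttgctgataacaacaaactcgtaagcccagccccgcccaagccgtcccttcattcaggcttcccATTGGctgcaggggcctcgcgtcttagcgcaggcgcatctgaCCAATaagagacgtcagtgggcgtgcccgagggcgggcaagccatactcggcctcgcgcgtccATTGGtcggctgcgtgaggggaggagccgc

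The Nfe2l2 window held 1 antioxidant core, 240 bases before the start, and no CCAAT. The Srxn1 window held 1 core, 28 bases after the start. Both motifs occurred in Gclm, with CCAAT 158 and the core 134 bases before the start. They also occurred together at the second Txnrd1 start, at 163 and 92 bases before it. Gpx4 had no antioxidant core, and its second start had 3 CCAAT matches, at 85 and 43 bases before and 20 bases after it. The third Gpx4 window overlaps the second and held the same 3 matches. Keap1 and Nqo1 held neither set of letters in their windows.

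**Figure D1:**
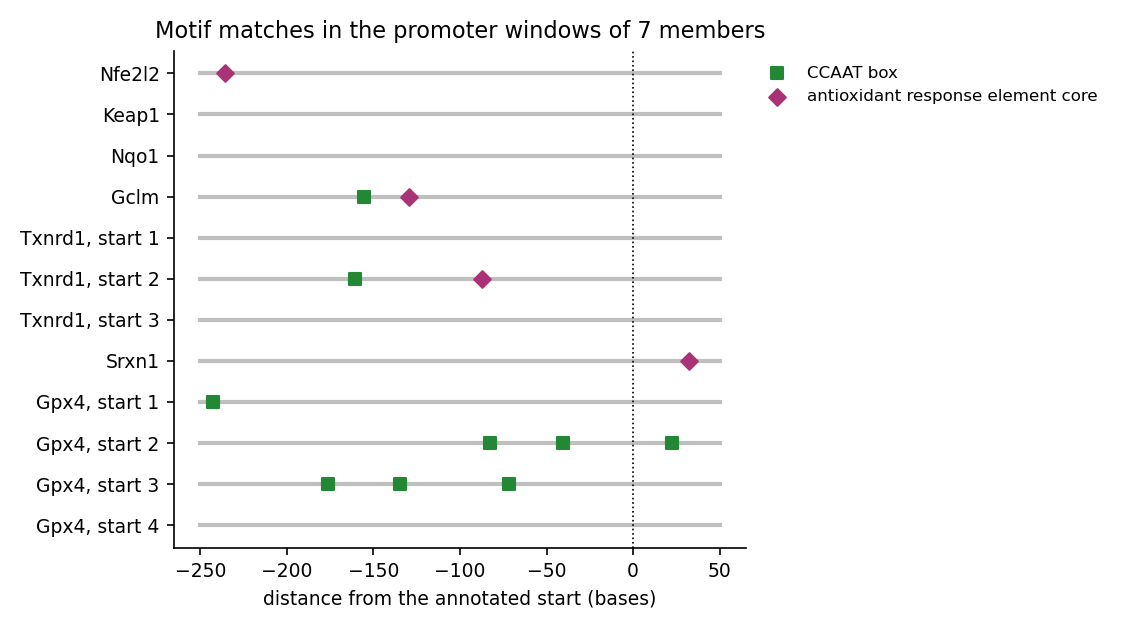
Position of each motif match (bases from the annotated start, x axis) in the 12 RefSeq promoter windows of 7 genes (grey lines, y axis). Squares are CCAAT and diamonds the antioxidant response element core, on either strand. CCAAT lies in windows of Gclm, Txnrd1 and Gpx4, and the core in those of Nfe2l2, Gclm, Txnrd1 and Srxn1.

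As a check of the labels, the targeted genes were read first. Normalized log2 signal, which is log2 signal minus the 75th percentile of the array, fell for Nfya by 0.76 (SE 0.055, limma adjusted p = 0.00128). For Nfyc it fell by 1.81 (SE 0.045, limma adjusted p = 0.000323). The 75th percentile lay between 718 and 754 intensity units, 61.9% to 66.2% of spots per array were well above background, and no spot was saturated. All 16 neuroblastoma and sympathetic neuron markers examined were well above background on all 6 arrays. Their summed signal, in multiples of the 75th percentile, was 494 to 507 in control and 466 to 483 in knockdown arrays. Single markers moved both ways within that sum. Th was called lower (-0.62). At a limma adjusted p below 0.05, Phox2a (-0.49), Stmn2 (-0.25) and Gap43 (-0.25) were also lower, and Gata2 (0.56), Isl1 (0.49) and Gata3 (0.22) were higher. The corresponding sums were 0.233 to 0.278 and 0.267 to 0.308 for 7 fibroblast markers, and 0.190 to 0.218 and 0.161 to 0.181 for 5 astrocyte markers. For 6 microglia and leukocyte markers they were 2.23 to 3.18 and 2.13 to 2.55, and for 4 endothelial markers 13.7 to 15.2 and 12.01 to 13.2. The last 2 sums were mostly Csf1r and Kdr, which did not pass the test, and among fibroblast markers Pdgfra was called higher (1.29) and Col1a1 lower (-0.77). The astrocyte marker Aldh1l1 (-0.48) and the leukocyte marker Ptprc (-0.52) were lower at a limma adjusted p below 0.05. Col3a1, Lum, Pdgfrb, Slc1a3, S100b, P2ry12, Cdh5 and Tie1 were not well above background on any array. The part of these shifts in the results below was not tested.

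The 10 genes moved by small amounts, mostly upward, in the knockdown. A gene is said here to have risen or fallen at a limma adjusted p below 0.05, and to be called when it also changed more than 1.5-fold. By that measure 6 of the 10 rose (Nfe2l2, Nqo1, Gclc, Gsr, Txnrd1 and Srxn1), 0 fell and 4 did not pass the test (Keap1, Hmox1, Gclm and Gpx4). Over all tested genes 15.7% rose and 15.8% fell. The count among the 10 was 3 without control replicate 1 or 2 or knockdown replicate 1 or 3, and 4 without control replicate 3 or knockdown replicate 2. In these fits the share of all tested genes that rose was also lower, at 9.50% to 11.99%. None of the 10 was called (0 higher and 0 lower in limma, against 3.91% and 5.00% of all tested genes), since every change was under 1.5-fold. At an unadjusted p below 0.05, a threshold with no share of all tested genes taken, Keap1 passed besides the 6. With the minimum lowered to 1.2-fold, Nfe2l2, Nqo1, Txnrd1 and Srxn1 were called higher, against 12.4% of all tested genes. For 8 genes all knockdown arrays lay above all controls, and for Hmox1 all lay below, while 27.7% and 27.1% of all tested genes separated in these ways. The median change of the 10 genes was 0.20 on the log2 scale, against 0.0053 over all tested genes. In bulk RNA, a change in how many cells express a gene and a change in its RNA per cell cannot be told apart.

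**Figure D2:**
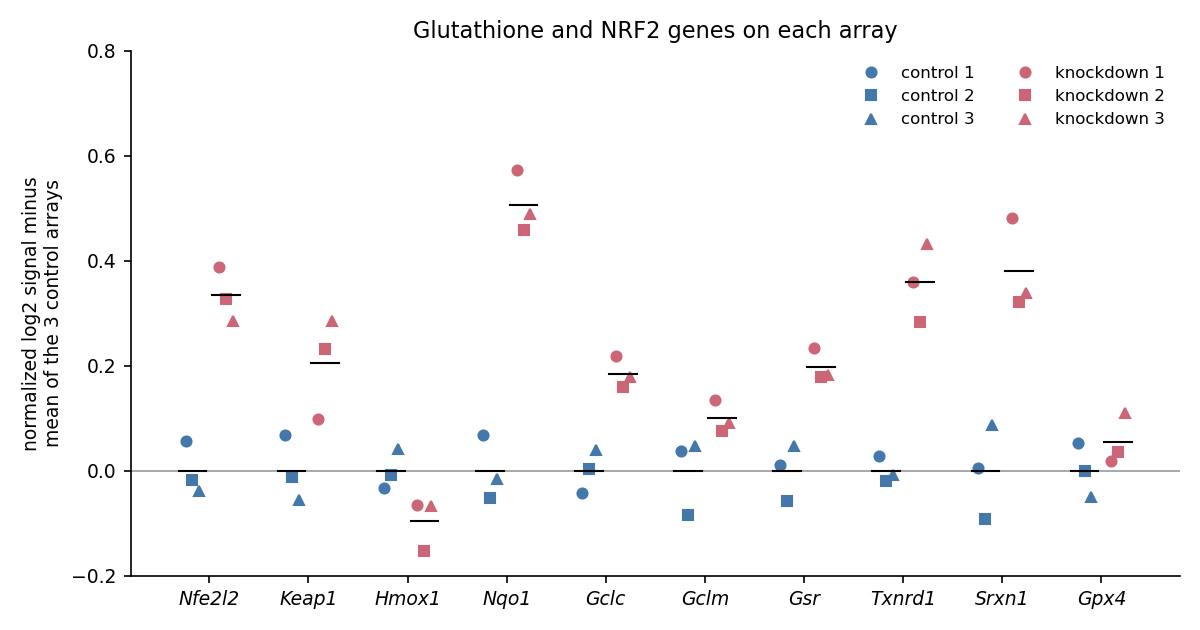
Normalized log2 signal of each gene on each array minus the mean of the 3 control arrays (y axis), for 10 genes (x axis). Blue symbols are control and red symbols knockdown arrays, the symbol shape gives the replicate number and black bars are group means. Knockdown arrays lie above all controls except for Hmox1, where they lie below, and Gpx4, where the groups overlap.

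The regulators come first. Nfe2l2 (probe A_51_P411271) had a normalized log2 signal of 1.86, 1.78 and 1.76 on control arrays 1 to 3 and of 2.19, 2.13 and 2.09 on knockdown arrays 1 to 3. All knockdown values lay above all controls, by more than the spread within either group. The control arrays averaged 1.80 ± 0.050 and the knockdown arrays 2.13 ± 0.051 (SD, n = 3 each). The change was 0.33 (SE 0.052, limma adjusted p = 0.0107), which is 1.26-fold with a 95% interval of 1.15 to 1.38. It kept its adjusted p below 0.05 with each array left out in turn. With slide row as a block, which sets knockdown array 1 alone against the controls, the change was 0.39.

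Keap1, the substrate adaptor that marks NRF2 for degradation, had normalized log2 signals of 2.39, 2.31 and 2.26 in control and 2.42, 2.55 and 2.61 in knockdown (probe A_51_P438666). The lowest knockdown array exceeded the highest control array by a margin smaller than the spread within the groups. Its change was 0.21 (SE 0.069, limma adjusted p = 0.0949), with a 95% interval of 1.02 to 1.30 on the fold scale, and it did not pass. In 3 of 19 alternative settings, given below, Keap1 passed. The log2 difference of Nfe2l2 minus Keap1 averaged -0.52 ± 0.015 over control and -0.39 ± 0.15 over knockdown arrays (SD, n = 3 each). For that shift of 0.13, an exact permutation test (two-sided, 20 assignments of the arrays) gave p = 0.2, or 0.3 adjusted over the 3 gene pairs compared. The smallest exact p this design allows is 0.1.

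Of the target genes, Nqo1, a quinone reductase that uses NAD(P)H, changed most. Its normalized log2 signal was -1.56, -1.68 and -1.65 on the control arrays and -1.06, -1.17 and -1.14 on the knockdown arrays (probe A_51_P424338). The groups were far apart relative to their spread, at -1.63 ± 0.062 and -1.12 ± 0.060 (SD, n = 3 each). The change of 0.51 (SE 0.057, limma adjusted p = 0.00412) corresponded to 1.42-fold, with a 95% interval of 1.29 to 1.57 that reached past the 1.5-fold minimum. In size it exceeded 82.5% of all tested genes. With slide row as a block, where it rests on knockdown array 1 alone, the change of Nqo1 was 0.57.

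Srxn1, sulfiredoxin, which repairs overoxidised peroxiredoxins, had normalized log2 signals of 1.89, 1.79 and 1.97 in control and 2.36, 2.20 and 2.22 in knockdown (probe A_55_P2033120). The knockdown arrays again lay above every control, with knockdown array 1 highest. Its change was 0.38 (SE 0.073, limma adjusted p = 0.0204), or 1.30-fold with a 95% interval of 1.14 to 1.48. Without control replicate 1 or 2, or knockdown replicate 1 or 3, the limma adjusted p was 0.0683, 0.0619, 0.0544 and 0.0582, and Srxn1 did not pass.

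Hmox1, which encodes the inducible heme oxygenase that opens the heme ring, had the lone change below 0. Its brighter probe (A_51_P263965) gave normalized log2 signals of 3.14, 3.16 and 3.21 in control and 3.10, 3.02 and 3.10 in knockdown. The knockdown arrays lay just below the controls. The change was -0.095 (SE 0.049, limma adjusted p = 0.232), with a 95% interval of 0.860 to 1.02 on the fold scale. The other probe (A_55_P2029687) changed by -0.045 (SE 0.060, limma adjusted p = 0.644), and its groups overlapped. Hmox1 therefore did not pass the test in either direction, and its interval leaves out a rise of the size seen for Nqo1, Srxn1 or Txnrd1.

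**Figure D3:**
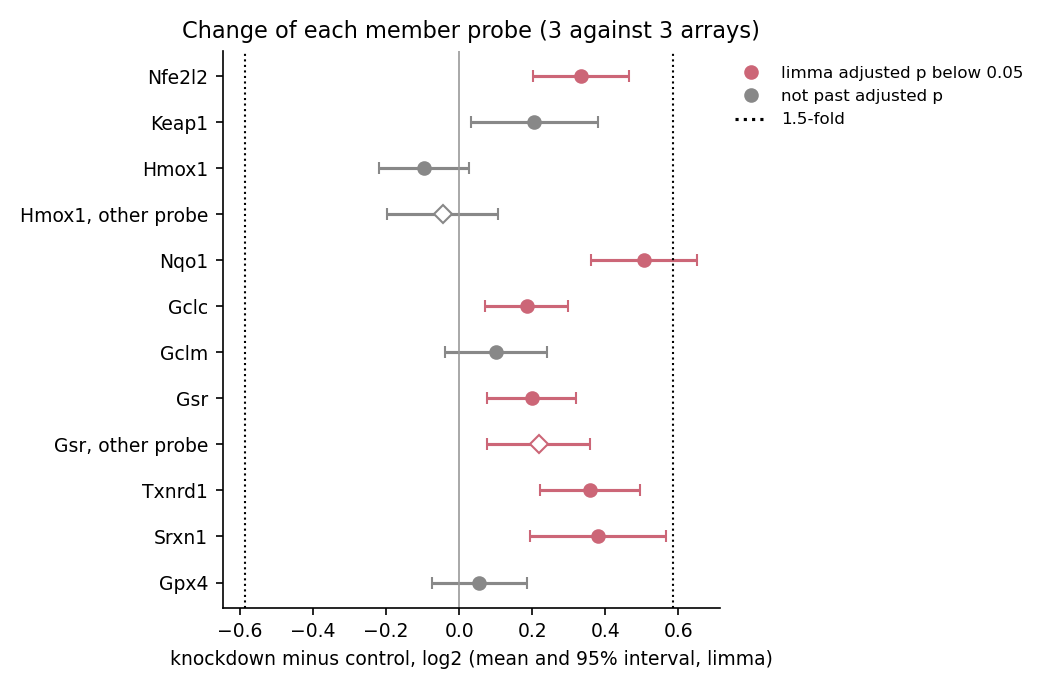
Change of each of the 12 probes, knockdown minus control on the log2 scale (x axis), with the limma 95% interval. Filled circles are the probes used for the genes, open diamonds the other probes of Hmox1 and Gsr, red marks an adjusted p below 0.05 and dotted lines mark 1.5-fold. The 6 genes that rose lie between 0.18 and 0.51, all inside the dotted lines.

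Glutathione is made in 2 steps, and the first, rate-limiting one is carried out by glutamate-cysteine ligase, whose catalytic subunit is Gclc and whose modifier subunit is Gclm. Gclc (probe A_51_P365019) had normalized log2 signals of 3.11, 3.15 and 3.19 in control and 3.37, 3.31 and 3.33 in knockdown. Every knockdown array was above every control. The change was 0.18 (SE 0.045, limma adjusted p = 0.0404), or 1.14-fold with a 95% interval of 1.05 to 1.23. Gclm (probe A_51_P320089) had 1.458, 1.335 and 1.466 in control and 1.555, 1.496 and 1.511 in knockdown. Its change of 0.10 (SE 0.055, limma adjusted p = 0.256) did not pass, with a 95% interval of 0.974 to 1.18 on the fold scale.

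That 1 subunit passed and the other did not is no sign that they differed. The log2 difference of Gclm minus Gclc averaged -1.73 ± 0.084 over control and -1.81 ± 0.0022 over knockdown arrays (SD, n = 3 each). The same exact test gave p = 0.4 for the shift of -0.084, and 0.4 when adjusted over the pairs.

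The reductases both rose. Gsr, glutathione reductase, returns oxidised glutathione to its reduced form, and was read by a pair of probes. The brighter one (A_55_P1966982) gave normalized log2 signals of 4.51, 4.44 and 4.54 in control and 4.73, 4.67 and 4.68 in knockdown. The change was 0.20 (SE 0.048, limma adjusted p = 0.0409), or 1.15-fold with a 95% interval of 1.05 to 1.25. The other probe (A_55_P2103055) changed by 0.22 (SE 0.055, limma adjusted p = 0.0461), and on both probes all knockdown arrays lay above all controls. Gclc and Gsr sat closest to the threshold. Leaving out any 1 of the 6 arrays gave a limma adjusted p of 0.0614 to 0.117 for Gclc and of 0.0582 to 0.114 for Gsr, so neither passed in any of those fits.

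Txnrd1, the cytosolic thioredoxin reductase and a selenoprotein, had normalized log2 signals of 4.98, 4.94 and 4.95 in control and 5.32, 5.24 and 5.39 in knockdown (probe A_51_P320614). The controls lay close together and every knockdown array was well above them. The change was 0.36 (SE 0.054, limma adjusted p = 0.00979), or 1.28-fold with a 95% interval of 1.17 to 1.41. Txnrd1 passed with each array left out in turn. With slide row as a block, where it rests on knockdown array 1 alone, its change was 0.36. The log2 difference of Txnrd1 minus Gsr averaged 0.46 ± 0.049 over control and 0.62 ± 0.078 over knockdown arrays (SD, n = 3 each). For the shift of 0.16 the exact test gave its smallest possible p, 0.1, and 0.3 when adjusted over the pairs.

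Gpx4, the selenoprotein that reduces lipid hydroperoxides in membranes at the expense of glutathione, had normalized log2 signals of 5.88, 5.83 and 5.78 in control and 5.85, 5.87 and 5.94 in knockdown (probe A_51_P462448). The groups overlapped. The change was 0.055 (SE 0.051, limma adjusted p = 0.501), with a 95% interval of 0.949 to 1.14 on the fold scale, which lies wholly below 1.2-fold. Gpx4 passed in 1 of 19 alternative settings, given below.

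All 6 arrays were on 1 slide, with the controls and knockdown array 1 in its first row and knockdown arrays 2 and 3 in its second. Within the first row, knockdown array 1 exceeded the control mean by 0.57 for Nqo1, 0.48 for Srxn1, 0.39 for Nfe2l2 and 0.36 for Txnrd1. The second-row arrays exceeded it by 0.47, 0.33, 0.31 and 0.36 for the same genes. Keap1 was the reverse, at 0.099 in the first row and 0.26 in the second. The first-row values are single and the second-row values are means of a pair of arrays, with no test. Since the second row holds no control, a fit with slide row as a block gives the first-row values as its changes.

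The size of these changes also rests on the scaling. When each array was centred on its median instead of its 75th percentile, the median of all tested genes moved by -0.117, and 0 of the 10 genes passed in limma (5.20% of all tested genes rose). At an unadjusted p below 0.05, 2 were higher and 0 lower in that fit, with no share of all tested genes taken at that threshold. Relative to the median of all tested genes, the change of Nqo1 was 0.50, that of Srxn1 0.38, that of Txnrd1 0.35 and that of Nfe2l2 0.33, under either centring. These match by construction, since centring shifts every gene and that median alike, so the match is no check of the rises. Gclm stayed at 0.096 and Gpx4 at 0.050 relative to that median, and went to -0.016 and -0.062 on the centred scale, where every gene shifted alike. Hmox1 was at 0.0074 (SE 0.052) with normexp background correction and quantile normalization together, at -0.051 with quantile normalization and at -0.034 with normexp and the 75th percentile. Keap1 passed with normexp and the 75th percentile, at 0.27 (limma adjusted p = 0.0116). It also passed with normexp and quantile normalization together (0.30) and with a variance trend. Gpx4 passed with normexp and quantile normalization together, at 0.16 (limma adjusted p = 0.0326), and in no other alternative. Nfe2l2, Keap1, Nqo1, Gclc, Gsr, Txnrd1 and Srxn1 were above 0 in all 19 alternative settings. The other filters, the variance trend and the replicate block left these changes as reported, so those settings are no check of the direction.

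**Figure D4:**
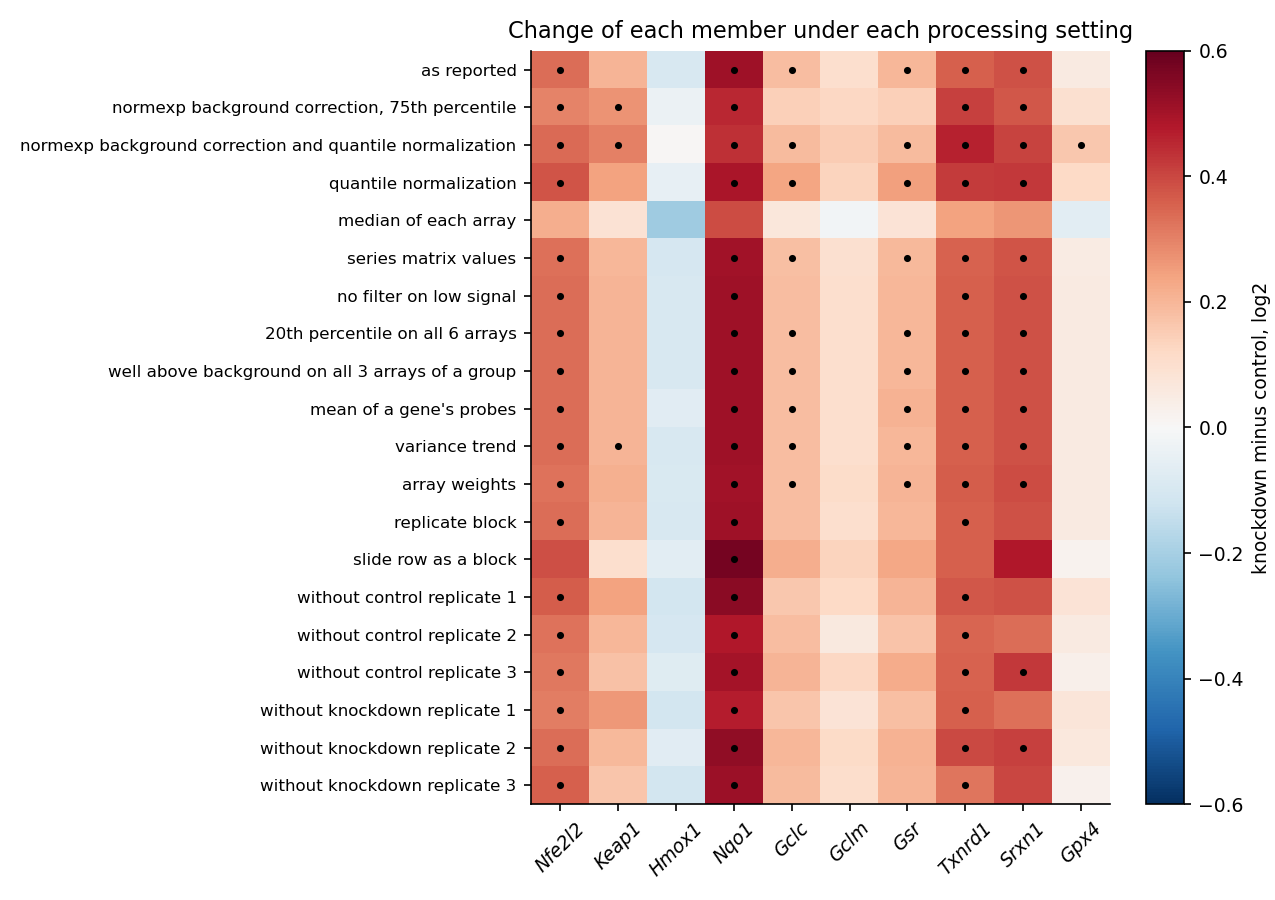
Change of each gene (columns), knockdown minus control on the log2 scale (colour), as reported and under 19 alternative settings (rows). Black dots mark a limma adjusted p below 0.05, which Keap1 reached in 3 alternatives and Gpx4 in 1. Nqo1 carries a dot in 18 of the 19 alternatives, Nfe2l2 and Txnrd1 in 17, Srxn1 in 12, and Gclc and Gsr in 8 each.

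Related genes outside the 10 were examined as 9 lists. With each gene counted once, 192 of them were tested. Of these 21 rose and 51 fell, with a median change of -0.063, and 4 were called higher and 13 lower. In shares, 10.9% rose and 26.6% fell against 15.7% and 15.8% of all tested genes, and 2.08% were called higher and 6.77% lower against 3.91% and 5.00%. With each array centred on its median the split was 4 risen and 50 fallen, where 858 of all 16490 tested genes rose and 2505 fell. The genes below that were not called are named by their values after these were seen, where a count was small, and changes are on the log2 scale.

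Among 24 tested regulators and partners of NRF2, 8 rose and 5 fell (median 0.063). These are 33.3% and 20.8%, against 15.7% and 15.8% of all tested genes. Those that rose include Cul3, the ligase scaffold that acts with Keap1, at 0.24 (limma adjusted p = 0.0195), and Sqstm1, which can sequester Keap1, at 0.27. The coactivators Ep300 and Crebbp rose by 0.39 and 0.33. Nfe2, the erythroid relative of NRF2, was called higher at 1.19 (SE 0.27, limma adjusted p = 0.0339), but only 1 of its 3 control spots cleared background. It kept its call in 10 of 19 alternatives, and lost it without control replicate 1, 2 or 3 or knockdown replicate 2, at changes of 1.26, 1.03, 1.27 and 1.25. Its change was 0.34 with normexp and 0.29 with normexp and quantile normalization, which also ended the call. It was likewise lost with quantile normalization (1.06), the median of each array (1.07) and the replicate block. Gsk3b, a kinase that marks NRF2 for Keap1-independent degradation, was called lower at -0.73 (SE 0.041, limma adjusted p = 0.000700). The other 4 that fell were Rbx1, Maff, Syvn1 and Amer1 (listed as Wtx), by 0.51, 0.39, 0.32 and 0.31.

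Of 20 tested genes for glutathione supply and breakdown, 1 (5%) rose and 5 (25%) fell (median -0.10), against 15.7% and 15.8% of all tested genes. Abcc1, an exporter of glutathione conjugates, changed by -1.10 (SE 0.046, limma adjusted p = 0.000404). Chac1, which degrades glutathione, changed by -0.59 (SE 0.055, limma adjusted p = 0.00237). Ggt7, Mat2a and Slc1a5 fell by 0.47, 0.38 and 0.25, and Cdo1, which oxidises cysteine, rose by 0.51. Chac1 lost its call without knockdown replicate 2 and with normexp, at -0.55 each, with normexp and quantile normalization (-0.49), with quantile normalization (-0.54) and with array weights (-0.58). The cystine importer Slc7a11 had a change of -0.89 (SE 0.29, limma adjusted p = 0.0906) and glutathione synthetase Gss one of -0.13 (SE 0.046, limma adjusted p = 0.102), and neither passed.

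Among 25 tested peroxidases, peroxiredoxins, thioredoxins and glutaredoxins, 3 (12%) rose and 6 (24%) fell (median -0.078), and 0 were called. Over all tested genes 15.7% rose and 15.8% fell. The lowest adjusted p belonged to Sesn2, a stress-inducible sestrin, at -0.46, and Txnrd2, the mitochondrial counterpart of Txnrd1, at -0.36. Their limma adjusted p was 0.00293 and 0.00533. Txnip, an inhibitor of thioredoxin, rose by 0.58, and Glrx and Glrx5 by 0.22 each. Of 24 tested glutathione S-transferases, 2 (8.33%) rose and 5 (20.8%) fell (median -0.12). Gstt2 was called lower at -1.32 (SE 0.29, limma adjusted p = 0.0310) and Gstm4 at -0.69 (SE 0.083), while Gsta1 was called higher at 0.60 (SE 0.061, limma adjusted p = 0.00296). Gstt2 was called in 11 of 19 alternatives, and not without control replicate 1, 2 or 3 or knockdown replicate 1 or 2, at changes of -1.26, -1.31, -1.39, -1.06 and -1.29. Its call was also lost with normexp (-0.50), with normexp and quantile normalization (-0.56) and with the replicate block. Gstm4 lost its call with the mean of its probes (-0.51) and with slide row as a block (-0.59). Gsta1 lost its call without control replicate 3 or knockdown replicate 1, at 0.57 each, with normexp (0.32), normexp and quantile normalization (0.27), quantile normalization (0.53) and the median of each array (0.49). Gstt1 rose by 0.56, and Gstm2, Gstm3 and Gstm7 fell by 0.53, 0.44 and 0.40. Members of these families are close in sequence, and a probe may not tell them apart.

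Of 36 other known NRF2 target genes tested, 5 (13.9%) rose and 9 (25%) fell (median -0.011), against 15.7% and 15.8% of all tested genes. Mt2, a metallothionein, was called higher at 0.84 (SE 0.060, limma adjusted p = 0.00125). Slc48a1, Cbr3, Sqstm1 and Ptgr1 rose by 0.52, 0.35, 0.27 and 0.21. Besides Abcc1, Akr1b3, Aox1, Idh1 and Akr1b8 had the largest falls, by 0.54, 0.45, 0.43 and 0.40. Of 13 superoxide dismutase, catalase and NADPH oxidase genes, 0 passed in limma. At an unadjusted p below 0.05, with no share of all tested genes taken, 1 was higher and 1 lower. These had limma adjusted p of 0.0657 for Romo1, at 0.14, and 0.0697 for Sod2, at -0.16.

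Selenoproteins and their synthesis genes, of which 30 were tested, had 3 (10%) rise and 10 (33.3%) fall (median -0.14), against 15.7% and 15.8% of all tested genes. Sephs2, which makes selenophosphate, was called higher at 0.72 (SE 0.057, limma adjusted p = 0.00158), and Pstk and Sepsecs rose by 0.36 and 0.33. Sephs1, the paralog of Sephs2, fell by 0.43. Selenoi, an ethanolamine phosphotransferase, was called lower at -1.60 (SE 0.058, limma adjusted p = 0.000331), Scly, a selenocysteine lyase, at -0.96 (SE 0.082) and Msrb1 at -0.60 (SE 0.043). Msrb1 was not called without control replicate 1 (-0.58) or with quantile normalization (-0.55).

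Of 22 genes of heme handling and iron stores, 1 (4.55%) rose and 9 (40.9%) fell (median -0.080), against 15.7% and 15.8% of all tested genes. Ppox, an enzyme of heme synthesis, was called lower at -1.70 (SE 0.060, limma adjusted p = 0.000331). The heme transporter Slc48a1 rose, as given above. Of 19 genes of lipid peroxidation and ferroptosis, 0 rose and 5 (26.3%) fell (median -0.13). The lysophospholipid acyltransferases Mboat1 and Lpcat3 and the acyl-CoA synthetase Acsl4, which activates fatty acids, were called lower at -1.54, -0.90 and -0.63. Their limma adjusted p ranged from 0.000457 for Mboat1 to 0.00467 for Acsl4, which was not called without control replicate 3, with slide row as a block or with normexp and quantile normalization, at -0.58 each. Gch1 and the transferrin receptor Tfrc fell by 0.43 and 0.31.

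**Figure D5:**
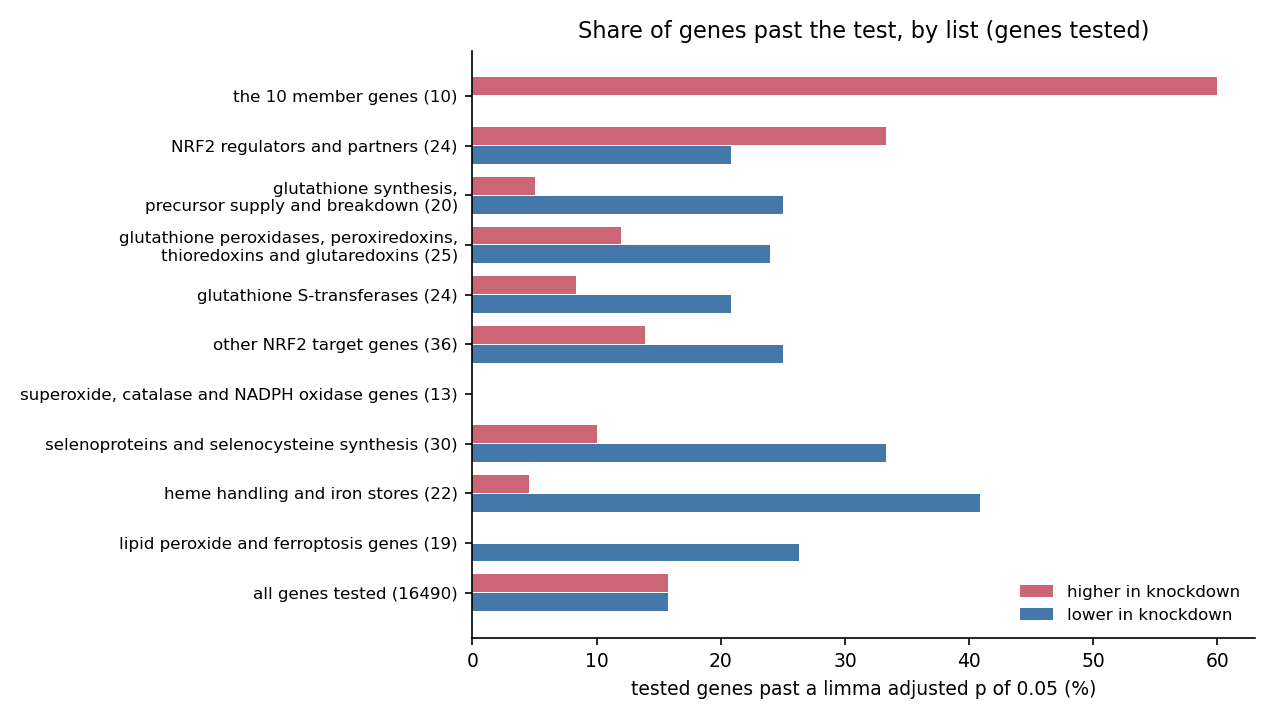
Share of tested genes with a limma adjusted p below 0.05 (x axis, percent), higher (red) and lower (blue) in knockdown, for the 10 genes, 9 related lists and all 16490 tested genes (number tested in parentheses). Among the 10 genes 6 rose and 0 fell, and in 7 of the 9 lists the lower share exceeds the higher one.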

How the data were processed

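Array intensity was measured on 6 single-colour arrays, 3 per group, grouped by sample title. The authors deposited scanner tables of Agilent Feature Extraction 10.10.1.1, whose processed signal is a background-corrected intensity on a linear scale. They also deposited a series matrix of log2 values with an unstated scale. Over 43557 single-spot probes its differences between arrays matched those computed here to within 0.0076, so it carries this scaling after a probe-wise constant was subtracted. Column medians lay near 0. In their own analysis the authors left out genes below the 20th percentile of expression.

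Control spots and outlier spots were removed, log2 processed signal was reduced by the 75th percentile of its array, and spots of a probe were averaged. Probes had to reach the 20th percentile on all 3 arrays of a group, leaving 42126 of 55681 probes. Symbols came from RefSeq (GRCm38.p6) through accessions (25869 of 26392 curated mRNA probes matched). The array annotation uses another build. The brightest tested probe stood for a gene.

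The 2 groups were tested against each other, two-sided and without covariates, by lmFit and eBayes of limma 3.58.1 (R 4.3.3), with Benjamini-Hochberg adjustment over all tested probes and checks on simulated data. The number of arrays limits the precision. All members, Nfya and Nfyc were named, and from each list up to 4 called genes of largest change, or the 2 with the lowest adjusted p where fewer than 2 were called. An item that the rule names is not reported here. Members and lists were chosen with earlier results of these data known.

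Alternatives were other scalings, background correction (normexp with an offset of 50, on the median spot signal, since no mean signal column was in the tables), the series matrix, filters, probe averaging, variance models, blocks, a lower fold minimum and leaving out each array.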

Additional observations from a re-analysis of the deposited data

How the results depend on the processing

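The counts of the 10 genes called at 1.5-fold stayed at 0 in each direction under all 19 alternatives that kept that minimum, and 4 were called higher at 1.2-fold. The number that rose, 6 as reported, was 0 with the median of each array, 3 with the replicate block and 3 to 4 with an array left out. Of all tested genes 15.7% rose as reported, 5.20% with the median of each array and 8.05% with the replicate block. With an array left out that share was 9.50% to 11.99%. The number among the 10 lay between 4 and 8 in the other alternatives, leaving aside slide row as a block, which rests on knockdown array 1 alone. Nfe2l2, Nqo1 and Txnrd1 passed in every fit that left out an array and with the replicate block. Called genes of the related lists numbered 2 higher and 19 lower with the median of each array, against 4 and 13. Hmox1 (0.0074) and Sod2 (0.014) were above 0 with normexp and quantile normalization together, and the cause was not tested. Gclm (-0.016) and Gpx4 (-0.062) were below 0 with the median of each array, which shifts every gene alike. Relative to the median of all tested genes they stayed at 0.096 and 0.050. Same-numbered arrays deviated from their group means with correlations of 0.0025 to 0.067 across probes, so the numbers were not read as pairs. With the replicate block 518 genes were called higher and 765 lower over all tested genes, against 644 and 824. Normexp with the 75th percentile gave 275 higher and 584 lower, normexp with quantile normalization 283 and 556, and the median of each array 382 and 1175, which moved the higher share from 43.9% to 32.01%, 33.7% and 24.5%. Precision is limited by 3 arrays per group.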
